A study of Mus musculus with 16 samples.

Results

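Cytochrome P450 families 1 to 4 were read in the lungs of wild-type mouse pups and pups labelled Fgf10+/-, each in normoxia or in high oxygen. Members were all array features whose platform gene symbol begins with Cyp1, Cyp2, Cyp3 or Cyp4 followed by a letter and a digit, without Cyp2f2. This gave 75 genes on 106 features, of 20738 named genes on 31465 features that name a single gene. Of the 75 genes, 70 passed the filter on dim features and were tested among 20173 genes. Of those 70, 33 had at least 1 group mean above the array median of 4.50 on the log2 scale, and 37 lay under it in all 4 groups and are called near background. Cyp2b19, Cyp3a25, Cyp3a41b, Cyp3a59 and Cyp4f14 did not pass the filter.

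The study crossed genotype with oxygen in lung homogenates of pups at postnatal day 3, with 1 one-colour array per sample and 4 arrays in each of 4 groups. Wild-type pups stayed in normoxia or received 85% oxygen from day 0 to day 3, and pups labelled Fgf10+/-, with 1 intact copy of the growth factor gene, were kept in the same ways. The sources used here do not give the strain, the litters or how the Fgf10 allele was made, and heterozygous pups keep a working copy in every cell. Whether the 4 arrays of a group stem from separate animals or litters is not stated in the labels, and p-values reflect how these arrays scatter. The number of arrays, not a read depth, limits the precision.

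P450 enzymes are haem proteins of the endoplasmic reticulum that insert an oxygen atom into drugs, pollutants, steroids and fatty acids, drawing electrons from NADPH through the reductase Por. Families Cyp1 to Cyp3 mainly handle foreign compounds, and many of their genes are switched on by ligand-activated receptors: the aryl hydrocarbon receptor Ahr for Cyp1 genes, and Nr1i3 (CAR) and Nr1i2 (PXR) for Cyp2b and Cyp3a genes. Family Cyp4 hydroxylates the ends of fatty acid chains and of lipid mediators. In the lung much P450 protein sits in club cells, the secretory cells of the bronchioles, whereas many members are known mainly from the liver.

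The stretch of 250 bases before the annotated start is shown for the 4 members that were higher under hyperoxia in both genotypes, and for Cyp1a1, the classical target of Ahr, as a member that was not called. They come from RefSeq (GRCm38.p6), in which 58 of the 75 members had a promoter entry. Capitals mark GCGTG or its reverse complement CACGC, the core that Ahr is known to bind, and TATAAA on the gene's strand. The windows are Cyp2s1 at chr7:25816526-25816775 on the minus strand, Cyp2b10 at chr7:25897408-25897657 on the plus strand, Cyp2a4 at chr7:26306942-26307191 on the plus strand, Cyp3a13 at chr5:137921620-137921869 on the minus strand and Cyp1a1 at chr9:57697363-57697612 on the plus strand, each 5′ to 3′ along its gene.
Cyp2s1: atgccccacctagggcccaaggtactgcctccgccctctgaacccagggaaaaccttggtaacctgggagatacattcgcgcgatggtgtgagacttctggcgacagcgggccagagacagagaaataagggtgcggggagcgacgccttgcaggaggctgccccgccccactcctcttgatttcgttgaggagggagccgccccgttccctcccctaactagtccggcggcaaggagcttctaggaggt
Cyp2b10: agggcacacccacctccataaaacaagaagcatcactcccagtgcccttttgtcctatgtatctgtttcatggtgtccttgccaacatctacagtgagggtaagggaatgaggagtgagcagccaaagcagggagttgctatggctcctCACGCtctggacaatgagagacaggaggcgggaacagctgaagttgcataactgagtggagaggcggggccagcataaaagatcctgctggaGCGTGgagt
Cyp2a4: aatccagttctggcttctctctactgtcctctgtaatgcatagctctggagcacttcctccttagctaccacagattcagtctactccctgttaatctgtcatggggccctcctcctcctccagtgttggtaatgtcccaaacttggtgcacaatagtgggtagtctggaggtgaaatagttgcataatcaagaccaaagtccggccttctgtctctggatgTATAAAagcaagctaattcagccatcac
Cyp3a13: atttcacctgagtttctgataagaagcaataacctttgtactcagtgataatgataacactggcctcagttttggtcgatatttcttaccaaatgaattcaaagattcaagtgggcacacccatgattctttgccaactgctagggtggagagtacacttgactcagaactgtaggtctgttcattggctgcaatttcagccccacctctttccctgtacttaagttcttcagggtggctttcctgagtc
Cyp1a1: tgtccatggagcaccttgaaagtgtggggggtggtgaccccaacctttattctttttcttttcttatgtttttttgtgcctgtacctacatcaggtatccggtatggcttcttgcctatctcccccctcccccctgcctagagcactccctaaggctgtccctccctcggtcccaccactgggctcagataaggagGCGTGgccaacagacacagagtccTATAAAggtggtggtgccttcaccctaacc

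With the base before the start counted as -1, the Cyp2b10 window held CACGC from -101 and GCGTG from -9. The Cyp1a1 window held GCGTG from -54 and TATAAA from -30, and the Cyp2a4 window held TATAAA from -28. No searched motif was found in the Cyp2s1 and Cyp3a13 windows. GCGTG on either strand was present in 11 of the 58 member windows (19.0%) and in 28.2% of all 32851 promoter windows of this length. TATAAA was present in 17 of 58 (29.3%) against 7.59% of all windows. TGACNNNGC, the core of the antioxidant response element to which NRF2 binds, was searched on both strands and was present in 2 of 58 (3.45%, Cyp4f14 and Cyp4f18) against 10.2%. These matches describe letters in a window and no binding.

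Fgf10 itself did not separate the genotypes on these arrays: its mean log2 signal was 7.80 in wild-type normoxia, 8.28 in Fgf10+/- normoxia, 7.85 in wild-type hyperoxia and 7.64 in Fgf10+/- hyperoxia. The difference of Fgf10+/- from wild type was 0.48 (SE 0.20, limma adjusted p = 0.334) in normoxia and -0.21 (adjusted p = 0.835) in hyperoxia. Between oxygen levels it was called lower in Fgf10+/- hyperoxia (-0.64, limma adjusted p = 0.0347), beside 0.06 (adjusted p = 0.897) in wild type. Where the feature lies relative to the altered allele was not known here, so its signal does not check the labels, and genotype is stated as labelled throughout. Replicates correlated at 0.974 to 0.983 over the 20173 tested genes. Lung markers were bright, with a mean of 13.08 to 13.72 over 8 alveolar type 2 genes in the 4 groups. Of 11 hepatocyte genes, 5 (Apoa1, Cps1, Fga, Fgb and Ttr) lay under the array median in every group. Replicate 4 of wild-type normoxia stood apart with a mean of 8.86 over 9 skeletal muscle genes and 7.04 over 5 brown fat genes, where the other 15 arrays did not exceed 5.82 and 5.37. Leaving it out changed 1 P450 call, that of Cyp2s1 between the genotypes, given with that comparison.

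Hyperoxia raised a small set of P450 genes in both genotypes. Cyp2b10, Cyp2s1, Cyp2a4 and Cyp3a13 were higher in 85% oxygen in wild type and in Fgf10+/- lungs, by 1.67-fold to 2.45-fold, and Cyp4b1 and Cyp4v3 were higher in Fgf10+/- lungs by 1.70-fold and 1.55-fold. In wild type, 5 of the 70 tested members were called higher and 1 lower by limma at a Benjamini-Hochberg adjusted p under 0.05. In Fgf10+/- lungs, 10 were called higher and 2 lower. Of all 20173 genes, 10.3% were called higher and 8.74% lower in wild type (19.1% in all), and 13.0% higher and 10.7% lower in Fgf10+/- (23.7% in all). Against that, the members called were 8.57% in wild type and 17.1% in Fgf10+/-. The median log2 difference over the 70 members was 0.04 in wild type and -0.05 in Fgf10+/-, beside 0.03 and 0.04 over all genes. Family 1 had medians of 0.50 and -0.10 with 0 of 3 genes called in either genotype. Family 2 had 0.11 and -0.14, with 3 and 8 of 43 called. Family 3 had -0.06 and 0.98, with 1 and 2 of 5 called. Family 4 had -0.06 and 0.11, with 2 and 2 of 19 called.

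**Figure D1:**
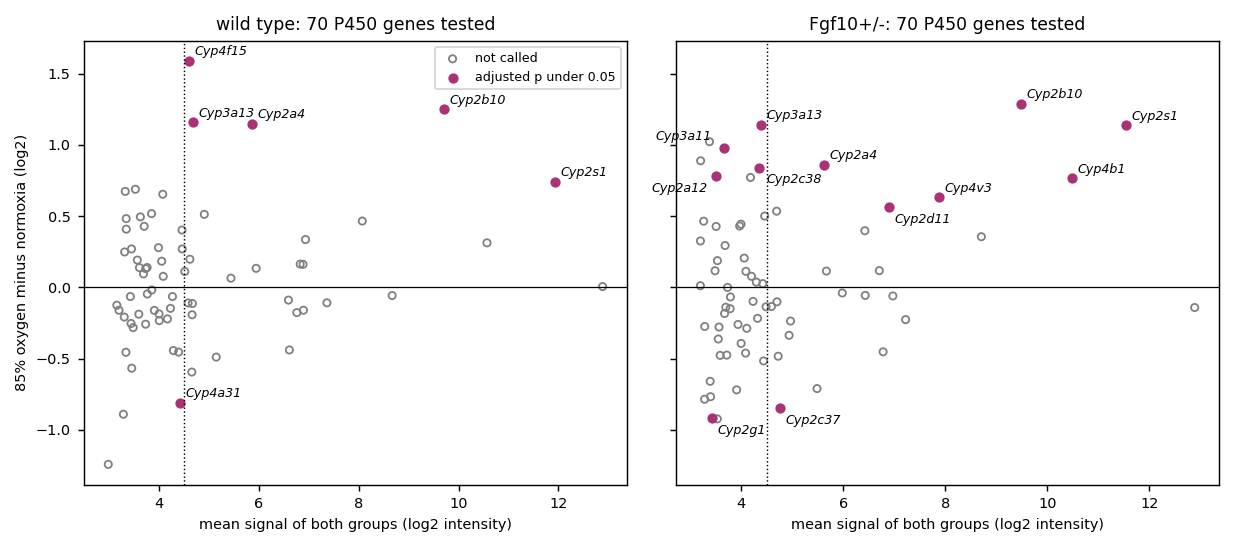
Difference between 85% oxygen and normoxia (log2, vertical axis) against the mean signal of both groups (log2 intensity, horizontal axis) for the 70 tested P450 genes, in wild type on the left and Fgf10+/- on the right. Filled points passed limma's adjusted p of 0.05 and the dotted line is the array median of 4.50; most genes lie near or under that line, and Cyp2b10 and Cyp2s1 are the called genes with a bright signal in both panels.

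The arrays of the 2 oxygen levels did not overlap for 9 of 70 members in wild type (12.9%) and 10 in Fgf10+/- (14.3%), beside 24.8% and 24.9% of all genes. Among the 33 members above the array median, 5 were called higher and 1 lower in wild type, and 8 higher and 1 lower in Fgf10+/-. Among the 37 near background, none was called in wild type, where none reached an unadjusted p under 0.05 in limma either, and in Fgf10+/- 2 were called higher and 1 lower. A gene counts as above the median through 1 group mean, so this split is not independent of the calls. Among called members, Cyp3a13, Cyp4f15 and Cyp2c38 had means above the median only under hyperoxia, and Cyp2c37 only in normoxia. The uncalled Cyp2d12, Cyp2w1 and Cyp4f39 also lay above it only under hyperoxia, and Cyp2c55 only in normoxia. The share of all genes split in this way was not computed. The 2 genotypes shared 4 called members, which is 4 of the 6 called in wild type and 4 of the 12 called in Fgf10+/-. Cyp4f15 and Cyp4a31 passed in wild type and not in Fgf10+/-, and 8 members passed in Fgf10+/- and not in wild type. No member passed the test of the difference between these responses, the genotype by oxygen interaction, in which 0 of 20173 genes (0%) were called by limma and 6 members had an unadjusted p under 0.05. The lowest adjusted p of a member there was 0.683.

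Cyp2b10, a club cell and liver enzyme induced through Nr1i3, rose in both genotypes. Its log2 signal was 9.41, 8.92, 9.00 and 9.01 in wild-type normoxia and 10.16, 10.59, 10.34 and 10.25 in wild-type hyperoxia. In Fgf10+/- lungs it was 8.48, 8.81, 9.30 and 8.78 in normoxia and 10.50, 9.87, 10.32 and 9.84 in hyperoxia. Every hyperoxia array lay above every normoxia array. The log2 difference was 1.25 (SE 0.19, 2.38-fold, limma adjusted p = 0.000456) in wild type and 1.29 (SE 0.19, 2.45-fold, adjusted p = 0.000242) in Fgf10+/-, and these differed by 0.04 (95% interval -0.54 to 0.62, interaction adjusted p = 0.985).

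Cyp2s1, a P450 of airway and other surface epithelia, also rose in both genotypes. It read 11.68, 11.45, 11.73 and 11.38 in wild-type normoxia and 12.32, 12.49, 11.96 and 12.43 in wild-type hyperoxia. Fgf10+/- lungs gave 10.85, 11.05, 11.16 and 10.86 in normoxia and 12.25, 11.92, 12.28 and 12.02 in hyperoxia. Both genotypes were split cleanly by oxygen. The rise was 0.74 (SE 0.14, 1.67-fold, limma adjusted p = 0.00165) in wild type and 1.14 (SE 0.14, 2.20-fold, adjusted p = 5.26e-05) in Fgf10+/-, with an interaction of 0.40 (95% interval -0.02 to 0.81, adjusted p = 0.756).

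Cyp2a4, a steroid hydroxylase, was called higher in both genotypes. Its signal was 5.41, 5.37, 5.58 and 4.81 in wild-type normoxia and 6.50, 6.57, 5.96 and 6.73 in wild-type hyperoxia. In Fgf10+/- it was 5.62, 4.70, 5.52 and 4.92 in normoxia and 6.00, 6.73, 6.19 and 5.29 in hyperoxia. The wild-type groups were apart, whereas the last Fgf10+/- hyperoxia array fell among the normoxia arrays. The log2 difference was 1.15 (SE 0.30, limma adjusted p = 0.0136) in wild type and 0.86 (SE 0.30, adjusted p = 0.0472) in Fgf10+/-. A further feature of the gene gave 0.76 and 0.71. The Fgf10+/- call was lost without normoxia replicate 2 (0.70, limma adjusted p = 0.136) or 4 (0.77, 0.118), without hyperoxia replicate 1 (0.88, 0.0805), 2 (0.64, 0.145) or 3 (0.82, 0.102), and with the replicate number as a block (adjusted p = 0.0561). It was also lost with a shift to a common 75th percentile (limma adjusted p = 0.0559), quantile normalization (0.0534), a sex term (0.0717) or only the groups compared (0.115). Cyp2a4 has a near-identical neighbour, Cyp2a5, which was not analysed here, so the signal may be shared.

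Cyp3a13, a drug- and steroid-metabolising enzyme that is less confined to the liver than its Cyp3a relatives, was the single family 3 member above the array median. It read 4.33, 3.41, 4.00 and 4.67 in wild-type normoxia and 5.05, 5.42, 5.27 and 5.31 in wild-type hyperoxia. In Fgf10+/- lungs the signal was 3.17, 4.71, 3.32 and 4.08 in normoxia and 5.03, 4.65, 5.31 and 4.87 in hyperoxia. All hyperoxia arrays stood above the array median, and 1 normoxia array of Fgf10+/- reached the range of the hyperoxia arrays. The rise was 1.16 (SE 0.32, 2.24-fold, limma adjusted p = 0.0186) in wild type and 1.14 (SE 0.32, 2.21-fold, adjusted p = 0.0166) in Fgf10+/-, and a further feature gave 0.74 and 0.46. In wild type the call was lost without normoxia replicate 2 (0.93, limma adjusted p = 0.0616) or hyperoxia replicate 2 (1.11, 0.0501). In Fgf10+/- it was lost without normoxia replicate 1 (0.92, 0.0513) or 3 (0.98, 0.0528) or hyperoxia replicate 3 (1.03, 0.0515), and with only the groups compared (0.0532).

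**Figure D2:**
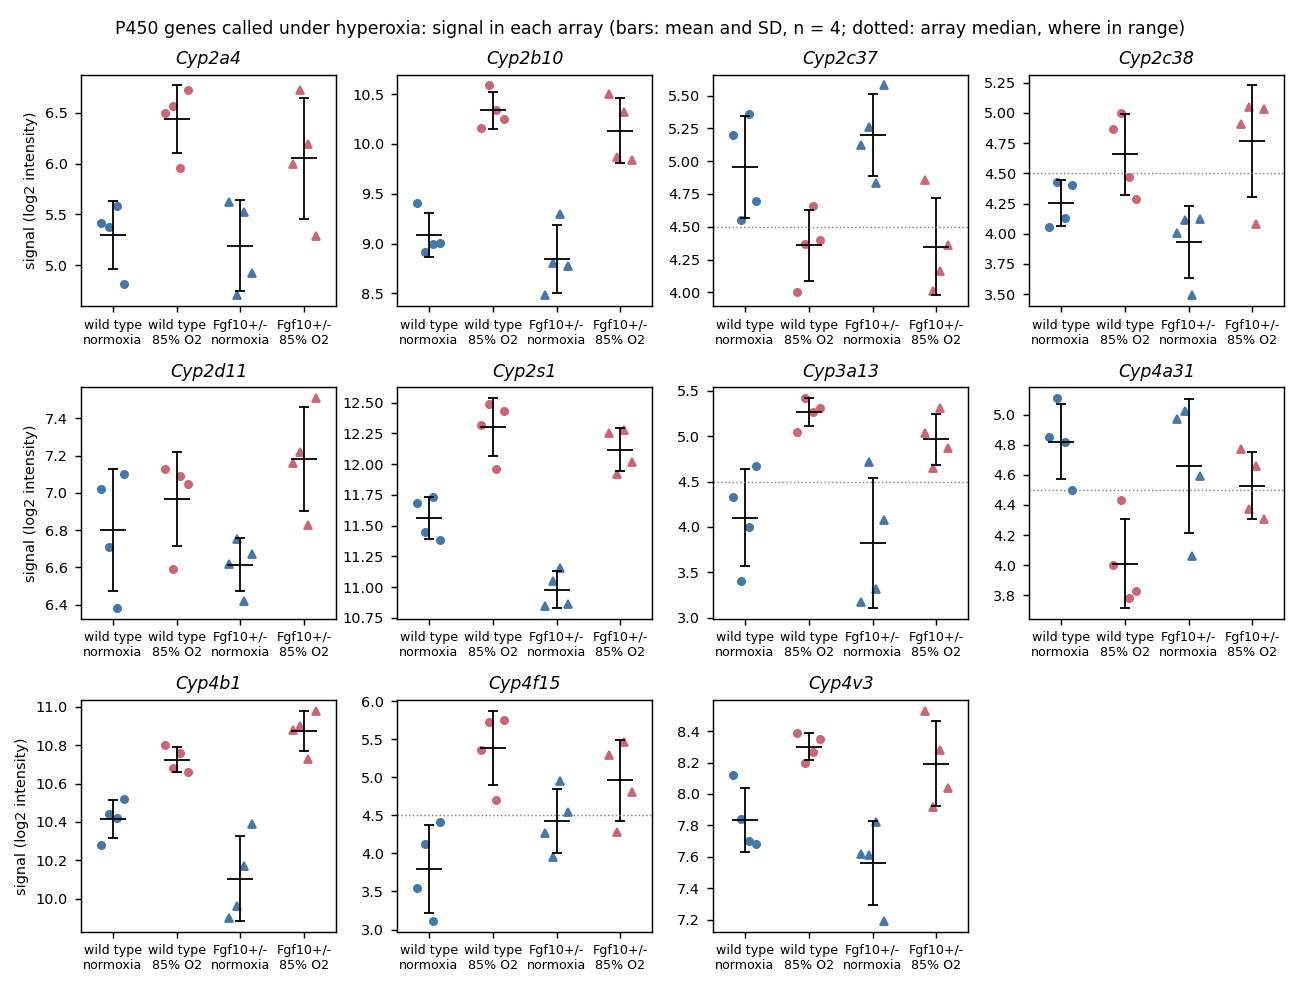
Log2 signal of the 11 called members above the array median in each of the 16 arrays; circles are wild type, triangles Fgf10+/-, blue normoxia and red 85% oxygen, and bars give mean and SD (n = 4). Cyp2b10 and Cyp2s1 show no overlap between oxygen levels in either genotype, and Cyp4f15 and Cyp4a31 are split by oxygen in wild type with overlap in Fgf10+/-.

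Among fatty acid hydroxylases of family 4, Cyp4b1 and Cyp4v3 moved upwards with oxygen. Cyp4b1, an abundant lung P450 known for activating plant furan toxins, read 10.28, 10.44, 10.42 and 10.52 in wild-type normoxia and 10.80, 10.68, 10.76 and 10.66 in wild-type hyperoxia. In Fgf10+/- lungs it read 9.90, 9.96, 10.17 and 10.39 in normoxia and 10.88, 10.90, 10.73 and 10.98 in hyperoxia. The arrays were split by oxygen in both genotypes. The log2 difference was 0.77 (SE 0.11, 1.70-fold, limma adjusted p = 0.000187) in Fgf10+/- and 0.31 (SE 0.11, adjusted p = 0.0603) in wild type, which did not pass. The wild-type difference was called with a filter at the 50th percentile (limma adjusted p = 0.0364), with trend and robust options (0.0202) and with array weights (0.0389). It had the lowest interaction p among members above the median, 0.45 (95% interval 0.12 to 0.78), yet with an adjusted p of 0.683.

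Cyp4v3, a fatty acid hydroxylase whose human counterpart is mutated in a crystalline retinal dystrophy, behaved similarly. Its signal was 8.12, 7.84, 7.70 and 7.68 in wild-type normoxia against 8.39, 8.20, 8.27 and 8.35 in hyperoxia. In Fgf10+/- it was 7.62, 7.61, 7.82 and 7.19 against 8.53, 7.92, 8.28 and 8.04. No array of one oxygen level reached the other within a genotype. The difference was 0.63 (SE 0.16, limma adjusted p = 0.00861) in Fgf10+/- and 0.47 (SE 0.16, adjusted p = 0.0504) in wild type, just outside the threshold. Without normoxia replicate 1 the wild-type difference was 0.56 (limma adjusted p = 0.0288), and it was called as well with the replicate number as a block (adjusted p = 0.0312), a filter at the 50th percentile (0.0312), trend and robust options (0.0247), array weights (0.049) and only the groups compared (0.0368).

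Cyp4f15 and Cyp4a31 were called in wild type alone. Cyp4f15, of the Cyp4f group that degrades leukotrienes and long fatty acids, read 3.54, 4.12, 3.11 and 4.41 in wild-type normoxia and 5.36, 5.73, 4.70 and 5.75 in hyperoxia. Its Fgf10+/- values were 4.27, 3.96, 4.95 and 4.54 in normoxia and 5.30, 4.28, 5.46 and 4.81 in hyperoxia, and here the groups overlapped. It rose by 1.59 (SE 0.34, 3.01-fold, limma adjusted p = 0.00432) in wild type, and the difference in Fgf10+/- was 0.54 (adjusted p = 0.297). The interaction was -1.06 (95% interval -2.08 to -0.03) with an adjusted p of 0.751, so a difference between genotypes was not shown.

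Cyp4a31 belongs to the Cyp4a group of fatty acid hydroxylases controlled by Ppara. It read 4.85, 5.11, 4.82 and 4.50 in wild-type normoxia and 4.00, 4.43, 3.78 and 3.83 in hyperoxia. In Fgf10+/- it read 4.97, 5.02, 4.06 and 4.59 in normoxia and 4.77, 4.37, 4.66 and 4.31 in hyperoxia. All wild-type hyperoxia arrays were below the array median, and the Fgf10+/- groups overlapped. It fell by 0.81 in wild type (SE 0.21, limma adjusted p = 0.0159), and the difference in Fgf10+/- was -0.13 (adjusted p = 0.719). The call was lost without normoxia replicate 2 (-0.71, limma adjusted p = 0.0524) or hyperoxia replicate 3 (-0.73, 0.0504). Its other kept features gave -0.21 and 0.09 in wild type, and their mean with the first was not called (-0.31, adjusted p = 0.466).

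Cyp2c37 and Cyp2c38, which act on arachidonic acid, moved in opposite directions in Fgf10+/- lungs. Cyp2c37 read 5.12, 5.26, 4.83 and 5.58 in Fgf10+/- normoxia and 4.86, 4.01, 4.16 and 4.36 in hyperoxia. In wild type it read 5.20, 4.55, 5.36 and 4.70 against 4.00, 4.37, 4.66 and 4.40. The hyperoxia arrays were mostly the lower ones, and in each genotype 1 hyperoxia array lay above the lowest normoxia array. It fell by 0.85 in Fgf10+/- (SE 0.23, limma adjusted p = 0.0145), and the difference in wild type was -0.59 (adjusted p = 0.0879).

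Cyp2c38 read 4.01, 4.11, 3.49 and 4.12 in Fgf10+/- normoxia and 4.91, 5.05, 4.08 and 5.03 in hyperoxia. Its wild-type values were 4.06, 4.43, 4.13 and 4.40 in normoxia and 4.87, 5.0, 4.47 and 4.29 in hyperoxia. The third Fgf10+/- hyperoxia array lay among the normoxia arrays. It rose by 0.84 in Fgf10+/- (SE 0.23, limma adjusted p = 0.0147), and the wild-type difference was 0.40 (adjusted p = 0.251). A further feature gave -0.19 in Fgf10+/-, and the mean of its features was not called (0.33, adjusted p = 0.122). Only the groups compared gave an adjusted p of 0.0537 in limma. Cyp2c genes are close relatives of each other, so their assignment to single genes is uncertain.

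Cyp2d11, of the drug-metabolising Cyp2d group, read 6.62, 6.75, 6.42 and 6.67 in Fgf10+/- normoxia and 7.16, 7.22, 6.83 and 7.51 in hyperoxia, without overlap. In wild type it read 7.02, 6.71, 6.38 and 7.10 against 7.13, 6.59, 7.09 and 7.05, with overlap. It rose by 0.57 in Fgf10+/- (SE 0.18, limma adjusted p = 0.0335), beside 0.16 (adjusted p = 0.609) in wild type. The call was lost without normoxia replicate 1 (0.57, limma adjusted p = 0.0593), 3 (0.50, 0.0886) or 4 (0.59, 0.058), and without hyperoxia replicate 1 (0.58, 0.0622), 2 (0.56, 0.0703) or 4 (0.46, 0.0968), and with array weights (0.0612) or a sex term (0.0523).

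Near background, 3 members were called in Fgf10+/- lungs, and leaving out most single arrays ended each call. The liver gene Cyp2a12 read 3.39, 2.95, 3.07 and 3.05 in normoxia and 4.36, 3.48, 3.82 and 3.94 in hyperoxia. It rose by 0.78 (limma adjusted p = 0.036), beside 0.48 (adjusted p = 0.216) in wild type. The call was lost without normoxia replicate 2 (0.73, limma adjusted p = 0.0877), 3 (0.77, 0.0717) or 4 (0.76, 0.0773), without hyperoxia replicate 1 (0.63, 0.111), 3 (0.81, 0.0603) or 4 (0.77, 0.0692), and with the replicate block (adjusted p = 0.0503) or trend and robust options (0.136). Cyp3a11, the main Nr1i2 target of the liver, read 3.27, 3.22, 3.06 and 3.19 in normoxia and 3.43, 5.10, 4.37 and 3.75 in hyperoxia, with replicate 2 the highest. It rose by 0.98 (limma adjusted p = 0.0359), beside 0.52 in wild type, which was not called. For the Fgf10+/- difference the replicate block gave a limma adjusted p of 0.0531, trend and robust options 0.0505 and only the groups compared 0.0775. Its call was lost without normoxia replicate 1 (1.01, limma adjusted p = 0.0568), 2 (0.99, 0.0656), 3 (0.94, 0.0779) or 4 (0.98, 0.0697), or hyperoxia replicate 2 (0.67, 0.104) or 3 (0.91, 0.0872). The mean over 11 hepatocyte genes was 5.34 in that hyperoxia replicate 2 and 4.16 to 4.42 in the group's other arrays, and its part in the result was measured only by that omission.

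Cyp2g1, known from the olfactory lining, read 3.78, 3.80, 3.92 and 4.05 in Fgf10+/- normoxia and 3.58, 2.66, 3.00 and 2.65 in hyperoxia. All 8 values were under the array median of 4.50. It fell by 0.92 (limma adjusted p = 0.0376), beside a difference of -0.19 (adjusted p = 0.736) in wild type. The call was lost without normoxia replicate 1 (-0.95, limma adjusted p = 0.056), 2 (-0.94, 0.063), 3 (-0.90, 0.0729) or 4 (-0.86, 0.0893), and without hyperoxia replicate 2 (-0.81, 0.100), 3 (-0.93, 0.0688) or 4 (-0.81, 0.0959), and with trend and robust options (0.0832).

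The classical Ahr targets of family 1 were not called. Cyp1a1, which oxidises polycyclic hydrocarbons, read 5.75, 4.01, 5.04 and 3.80 in wild-type normoxia and 5.15, 4.98, 4.73 and 5.78 in hyperoxia. In Fgf10+/- it read 5.02, 4.08, 5.13 and 4.78 against 5.02, 3.98, 4.46 and 5.15. The groups overlapped throughout. The difference was 0.51 (95% interval -0.37 to 1.39, limma adjusted p = 0.447) in wild type and -0.10 (95% interval -0.98 to 0.78, adjusted p = 0.896) in Fgf10+/-, so a doubling of signal lay within the wild-type interval. Cyp1b1, a mesenchymal member that also handles oestrogens and retinoids, read 5.03, 5.63, 5.47 and 5.49 in wild-type normoxia and 5.29, 5.12, 5.67 and 5.81 in hyperoxia. In Fgf10+/- it read 5.98, 5.50, 5.60 and 5.38 against 6.06, 5.51, 6.01 and 5.33, and the oxygen levels overlapped in both genotypes. It differed by 0.07 (95% interval -0.38 to 0.51) and 0.12 (95% interval -0.33 to 0.56). Cyp1a2 was near background.

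**Figure D3:**
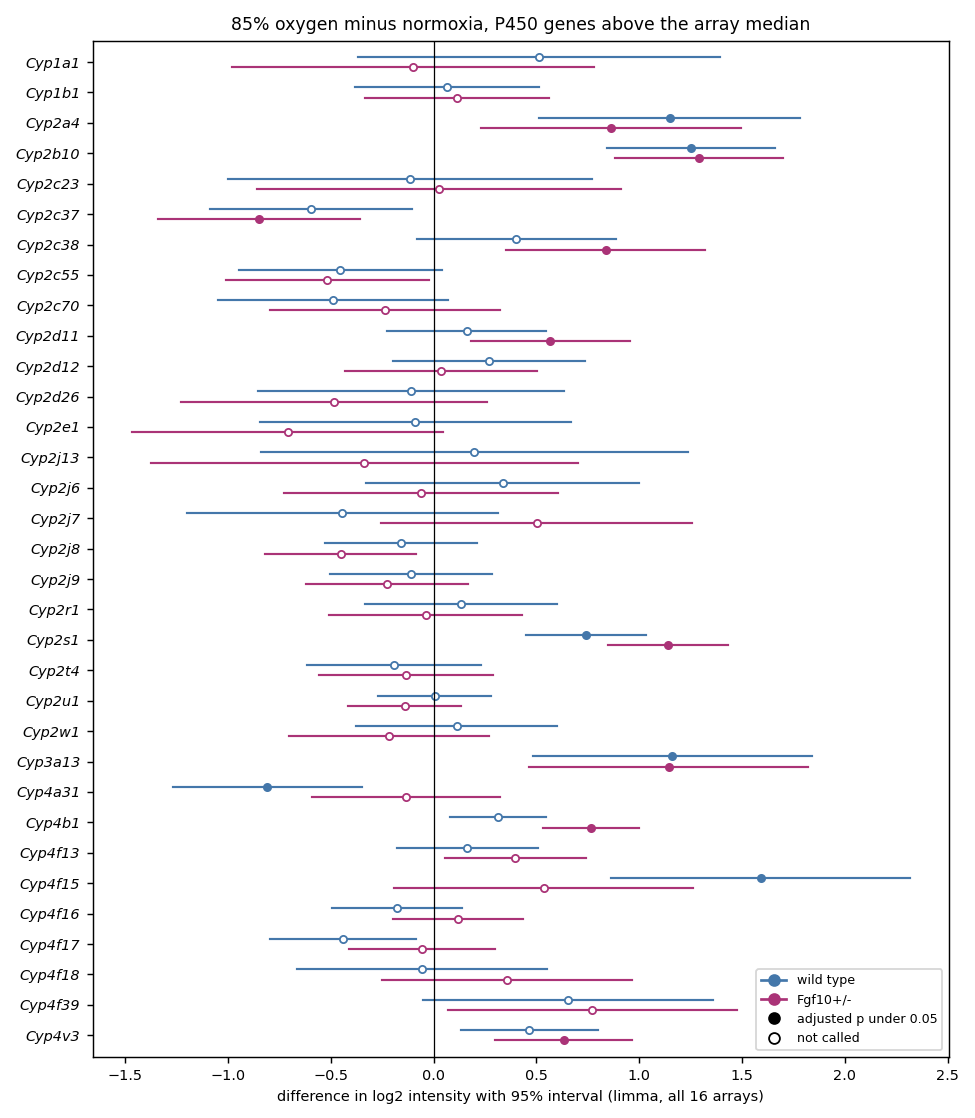
Difference between 85% oxygen and normoxia (log2) with its 95% interval for the 33 P450 genes above the array median, in wild type (blue) and Fgf10+/- (purple). Filled points passed limma's adjusted p of 0.05; Cyp2b10, Cyp2s1, Cyp2a4 and Cyp3a13 are filled in both genotypes, and Cyp1a1, Cyp1b1 and Cyp2u1 span 0 in both.

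Another 20 members above the median passed in no comparison. Cyp2u1, a hydroxylase of long-chain fatty acids, stayed within 12.58 to 13.25 in all 16 arrays, with differences of 0.01 (95% interval -0.27 to 0.28) in wild type and -0.14 (95% interval -0.42 to 0.13) in Fgf10+/-. Cyp4f18, the leukotriene hydroxylase of neutrophils, had group means of 8.53 to 8.88. The epoxygenase Cyp2j6 had means of 6.76 to 7.10, Cyp2j9 of 7.11 to 7.42 and the vitamin D hydroxylase Cyp2r1 of 5.88 to 6.01. The nearest to the threshold were Cyp2j8 in Fgf10+/- (-0.45, limma adjusted p = 0.0737), Cyp4f17 in wild type (-0.44, 0.0812), Cyp4f13 in Fgf10+/- (0.40, 0.0905) and Cyp4f39 in Fgf10+/- (0.77, 0.109). Leaving out normoxia replicate 1 or hyperoxia replicate 3 gave Cyp4f13 0.51 (limma adjusted p = 0.0381) and 0.50 (0.0476). Cyp2c55 was -0.52 in Fgf10+/- (limma adjusted p = 0.127), and -0.70 (0.0352) without normoxia replicate 1. Cyp2u1 was -0.29 (limma adjusted p = 0.0438) in Fgf10+/- without hyperoxia replicate 4.

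Cyp2c23, Cyp2c70, Cyp2d12, Cyp2d26, Cyp2j7, Cyp2j13, Cyp2t4, Cyp2w1 and Cyp4f16 had differences under hyperoxia between -0.49 (Cyp2c70, wild type) and 0.50 (Cyp2j7, Fgf10+/-), and none passed. Near background and not called were Cyp2a22, the Cyp2b genes Cyp2b9, Cyp2b13 and Cyp2b23, and the Cyp2c genes Cyp2c29, Cyp2c39, Cyp2c50, Cyp2c54 and Cyp2c65 to Cyp2c68. The same held for Cyp2d9, Cyp2d10, Cyp2d13, Cyp2d22, Cyp2d34 and Cyp2d40, for Cyp2j5 and Cyp2j11, and for Cyp3a16, Cyp3a44 and Cyp3a57. Of family 4 it held for Cyp4a10, Cyp4a12a, Cyp4a12b, Cyp4a14, Cyp4a29, Cyp4a30b, Cyp4a32, Cyp4f40, Cyp4f41-ps and Cyp4x1. By subfamily, 5 of 7 Cyp2j and 6 of 9 Cyp4f genes lay above the median, against 5 of 13 Cyp2c, 3 of 9 Cyp2d, 1 of 8 Cyp3a and 1 of 8 Cyp4a genes.

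Of the 4 members called in both genotypes, 3 lie in 1 gene cluster. In the RefSeq order of chromosome 7, 11 members follow each other as Cyp2s1, Cyp2b10, Cyp2b13, Cyp2b9, Cyp2a4, Cyp2b23, Cyp2b19, Cyp2g1, Cyp2a22, Cyp2a12 and Cyp2t4. Cyp2s1, Cyp2b10 and Cyp2a4 were called higher in both genotypes, and Cyp2a12 and Cyp2g1 were called in opposite directions in Fgf10+/-. Their neighbours Cyp2b13, Cyp2b9 and Cyp2b23 were near background, and Cyp2t4 at the far end differed by -0.19 and -0.14 (limma adjusted p = 0.573 and 0.689). Of the 13 members on chromosome 19, all Cyp2c genes, 0 were called in wild type and 2 in Fgf10+/-.

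**Figure D4:**
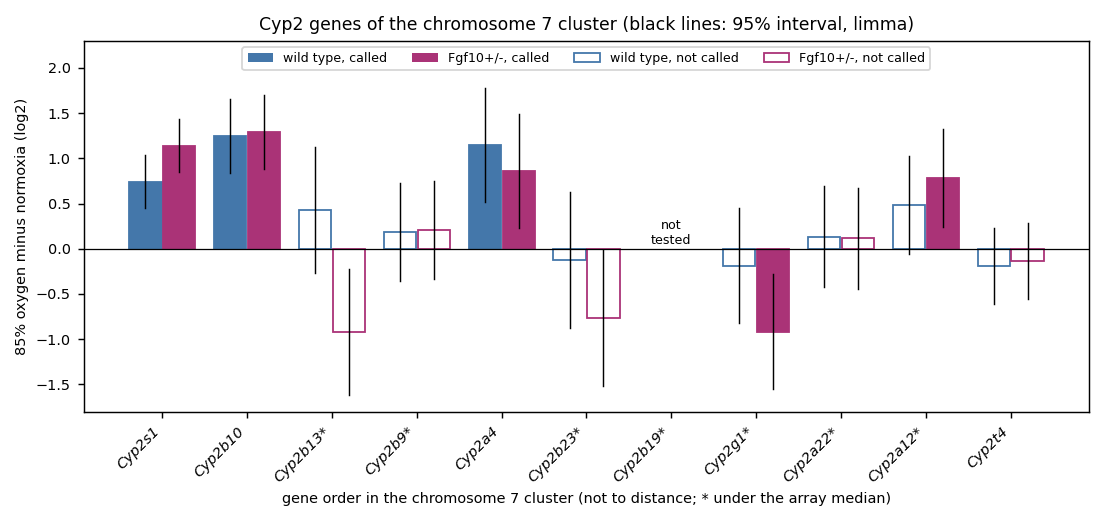
Difference between 85% oxygen and normoxia (log2 bars, from 0, with limma's 95% interval as a black line) for the 11 members of the chromosome 7 cluster in gene order, in wild type (blue) and Fgf10+/- (purple). Filled bars passed limma's adjusted p of 0.05, and a star marks genes under the array median or not tested. Filled bars above 0 in both genotypes stand at Cyp2s1, Cyp2b10 and Cyp2a4, with uncalled genes between Cyp2b10 and Cyp2a4.

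Several cell marker lists moved with oxygen, those of the airway epithelium in the same direction as these members. The mean over 10 club cell genes rose from 10.98 to 11.23 in wild-type normoxia to 12.20 to 12.56 in hyperoxia, and from 10.58 to 11.08 to 11.95 to 12.33 in Fgf10+/-. Of those 10 genes, 7 were called higher in wild type and 9 in Fgf10+/-. Aldh1a1, Bpifa1, Hp, Lypd2, Reg3g, Scgb3a1 and Scgb3a2 were called in both, and Cbr2 and Upk3a in Fgf10+/- alone. Scgb1a1, the remaining gene of the list, was called in neither genotype. The lowest log2 difference of a club cell gene was -0.04 in wild type and -0.02, that of Scgb1a1, in Fgf10+/-. The rise in the mean was thus not shared by every gene of the list. Of 11 tested ciliated cell genes, 6 and 8 were called higher (54.5% and 72.7%). None of either list was called lower, and none of the 10 club cell and 11 ciliated cell genes lay under the array median in all groups. Alveolar type 1 cell genes had 4 of 7 called higher in wild type and 5 of 7 in Fgf10+/- (57.1% and 71.4%). Their mean was 10.88 to 11.01 in wild-type normoxia and 11.24 to 11.43 in hyperoxia, and 10.66 to 10.83 against 11.29 to 11.42 in Fgf10+/-. Of 8 alveolar type 2 cell genes, 1 and 4 were called higher, and of 7 endothelial genes 2 and 3 lower. The mean over 6 genes of dividing cells went the other way, from 9.73 to 10.17 down to 7.01 to 7.72 in wild type and from 10.41 to 10.53 down to 8.20 to 9.03 in Fgf10+/-, with 6 of 6 called lower in both. The part of these cell markers in the rise of Cyp2b10, Cyp2s1, Cyp2a4 and Cyp4b1 was not tested. In a homogenate, more cells of a type and more RNA per cell cannot be told apart.

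No P450 gene was called between the genotypes. In normoxia 0 of 70 members passed (limma, adjusted p under 0.05) and 9 had an unadjusted p under 0.05, while 0.719% of all genes were called. In hyperoxia 0 of 70 passed and 7 had an unadjusted p under 0.05, while 0.411% of all genes were called. The arrays of both genotypes did not overlap for 2 members in each comparison, beside 7.53% and 5.98% of all genes. Of all genes, 0.605% were called lower in Fgf10+/- normoxia and 0.119% in hyperoxia.

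Cyp2s1 came nearest. With the array values given above, all 4 Fgf10+/- normoxia arrays lay below all 4 of wild type, at a mean of 10.98 ± 0.15 (SD, n = 4) against 11.56 ± 0.17 (SD, n = 4). The difference was -0.58 (SE 0.14, 1.50-fold lower, limma adjusted p = 0.0708), and in hyperoxia it was -0.18 (adjusted p = 0.752). It passed without wild-type normoxia replicate 4, the array with muscle and fat signal (-0.64, limma adjusted p = 0.0497), and under 3 other settings. The club cell mean was 10.98 to 11.23 in wild-type and 10.58 to 11.08 in Fgf10+/- normoxia, and the ciliated cell mean 8.01 to 8.61 against 7.59 to 8.18. The mean over 8 alveolar type 2 genes was 13.50 to 13.70 against 13.00 to 13.21, with 4 of 8 called lower. Their part in the Cyp2s1 difference was not tested.

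Cyp2e1, the ethanol-inducible P450 of liver and fat, had the largest size of difference among members above the median. It read 7.12, 6.32, 5.93 and 7.17 in wild-type normoxia, 5.0, 5.91, 6.16 and 6.30 in Fgf10+/- normoxia, 5.72, 7.14, 6.41 and 6.92 in wild-type hyperoxia, and 5.04, 5.10, 5.0 and 5.39 in Fgf10+/- hyperoxia. The hyperoxia groups were apart and the normoxia groups overlapped. The difference was -1.41 (95% interval -2.17 to -0.66, limma adjusted p = 0.139) in hyperoxia and -0.79 (95% interval -1.55 to -0.04, adjusted p = 0.358) in normoxia. A further feature gave 0.17 and -0.48, so the 2 features differed in direction in hyperoxia. Brown fat genes had means of 5.01 to 5.30 in wild-type and 4.76 to 5.32 in Fgf10+/- hyperoxia. In normoxia they had 4.77 to 7.04 in wild type and 4.73 to 5.37 in Fgf10+/-. Wild-type normoxia replicate 4 held both the 7.04 and the highest Cyp2e1 value. Without it the normoxia difference of Cyp2e1 was -0.62 (limma adjusted p = 0.489). The part of fat signal in the Cyp2e1 differences was not tested.

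Cyp4f13, another member of the Cyp4f group, also had no overlap in normoxia, with 6.95, 6.62, 6.85 and 6.56 in wild type and 6.55, 6.12, 6.14 and 6.09 in Fgf10+/-. The difference was -0.52 (SE 0.16, limma adjusted p = 0.161), and -0.29 (adjusted p = 0.644) in hyperoxia. Cyp4b1 was -0.31 (SE 0.11, limma adjusted p = 0.233) in normoxia. Cyp2b10 differed by -0.24 (95% interval -0.65 to 0.17) in normoxia and -0.20 (95% interval -0.61 to 0.21) in hyperoxia.

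**Figure D5:**
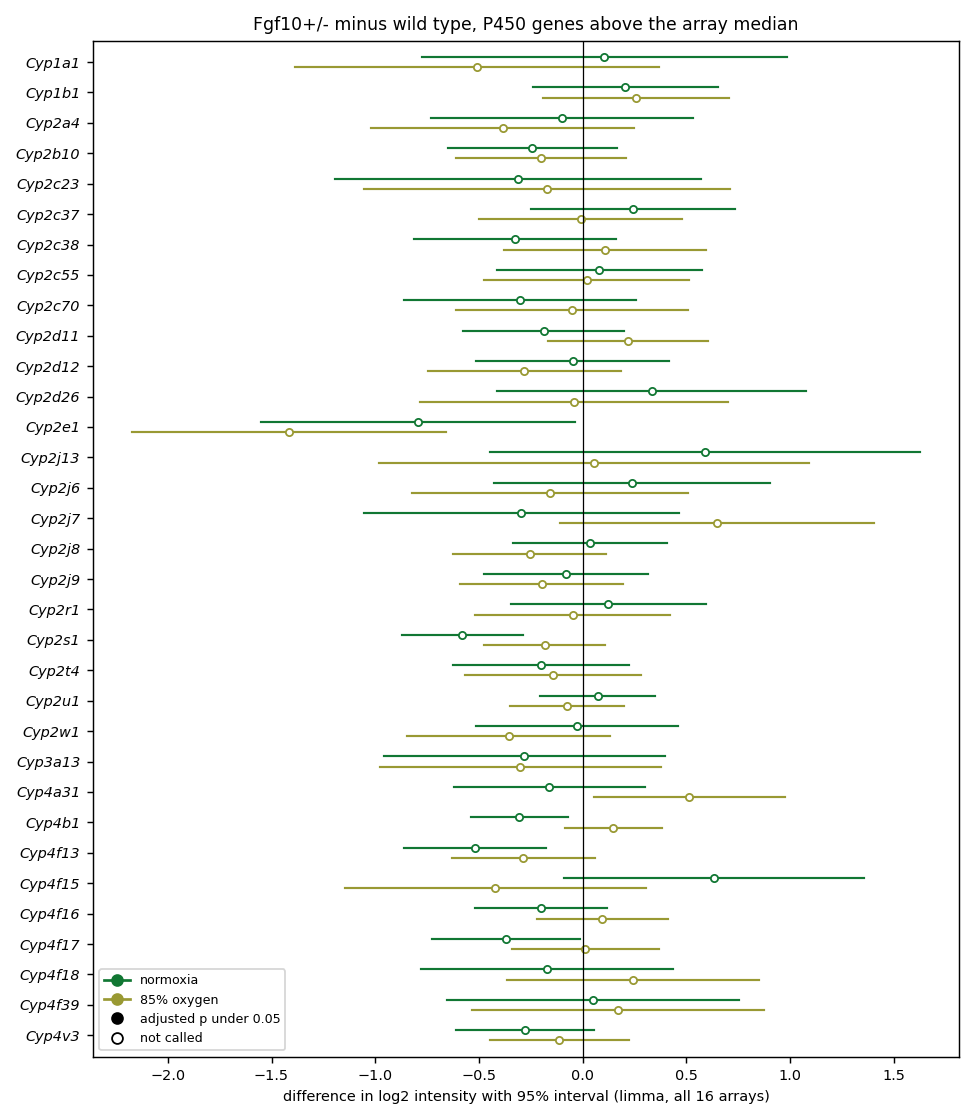
Difference of Fgf10+/- from wild type (log2) with its 95% interval for the 33 P450 genes above the array median, in normoxia (green) and 85% oxygen (olive). All points are open, since none passed limma's adjusted p of 0.05; Cyp2s1 and Cyp4f13 in normoxia and Cyp2e1 in both lie left of 0 with their intervals.

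Of 9 genes that pass electrons to P450 enzymes, 4 were called higher and 1 lower in wild-type hyperoxia, and 4 higher and 0 lower in Fgf10+/-. The called shares were 55.6% and 44.4%, beside 19.1% and 23.7% of all genes, and the medians 0.30 and 0.26 beside 0.03 and 0.04. Por, the reductase on which all microsomal P450s depend, rose by 0.46 (SE 0.10, limma adjusted p = 0.00516) in wild type and 0.83 (SE 0.10, adjusted p = 6.09e-05) in Fgf10+/-. Cytochrome b5, encoded by Cyb5a, rose by 0.63 and 0.81, and Cyb5b by 0.70 and 0.39. The Cyb5b call in Fgf10+/- was lost with the mean of all kept features (0.27, limma adjusted p = 0.196). Cyb5r3, which reduces cytochrome b5, fell by 0.57 in wild type (limma adjusted p = 0.000326), and its difference in Fgf10+/- was -0.16 (adjusted p = 0.210).

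Haem supply gave 2 of 12 genes higher and 0 lower in wild type, and 2 higher and 1 lower in Fgf10+/- (medians 0.24 and 0.14). This was 16.7% and 25% called, beside 19.1% and 23.7% of all genes. Alas1, the rate-limiting enzyme of haem synthesis, rose by 0.63 (limma adjusted p = 0.00227) and 0.88 (adjusted p = 0.000147). Blvra, which reduces biliverdin, fell by 0.56 in Fgf10+/-. The other calls were lost on leaving out arrays: Hmox2 in wild type without normoxia replicate 2 (0.28, limma adjusted p = 0.0553) and with the mean of all kept features (0.0919), and Ppox in Fgf10+/- without normoxia replicate 1 (0.34, 0.0899) or 2 (0.39, 0.0852) or hyperoxia replicate 1 (0.42, 0.0705), 2 (0.43, 0.0615), 3 (0.46, 0.0502) or 4 (0.44, 0.0547), and with only the groups compared (0.0668). Hmox1, the inducible haem oxygenase, was not called, at 0.80 (SE 0.66) and -0.23.

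Among 10 tested genes of the Ahr partners and non-P450 Ahr targets, 4 were called higher and 1 lower in wild type, and 5 higher and 1 lower in Fgf10+/- (medians 0.35 and 0.23). This was 50% and 60.0% called, beside 19.1% and 23.7% of all genes. Aldh3a1, an aldehyde dehydrogenase, rose by 2.40 (SE 0.22, 5.26-fold, limma adjusted p = 1.27e-05) in wild type and 2.74 (6.70-fold, adjusted p = 2.93e-06) in Fgf10+/-. The quinone reductase Nqo1 rose by 1.25 and 0.91, and the glutathione transferase Gsta1 by 1.88 and 1.41; both are also known NRF2 targets. Ugt1a6b, a glucuronosyltransferase, rose by 0.45 and 0.91, with the wild-type call lost without hyperoxia replicate 1 (0.39, limma adjusted p = 0.0563). Tiparp was the remaining gene called higher in Fgf10+/-. Its call was lost without any normoxia replicate (0.40 to 0.43, highest limma adjusted p = 0.0991). It was also lost without hyperoxia replicate 2 (0.32, 0.135), 3 (0.41, 0.0901) or 4 (0.45, 0.0529). A shift to a common 75th percentile (0.063), quantile normalization (0.0715) and only the groups compared (0.0576) ended it as well. Arnt2, a partner of Ahr-type factors, fell by 1.44 and 1.25, with the Fgf10+/- call lost without hyperoxia replicate 1 (-1.03, limma adjusted p = 0.0541) and with only the groups compared (0.0895). Ahr itself differed by -0.10 and -0.15 (limma adjusted p = 0.658 and 0.439). Cyp1a1 and Cyp1b1, which are among the P450 targets of Ahr, were not called beside them.

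Of 16 tested nuclear receptors and liver-type regulators, 4 were called higher and 0 lower in wild type and 3 higher and 0 lower in Fgf10+/- (medians 0.23 and 0.22). The called shares were 25% and 18.8%, beside 19.1% and 23.7% of all genes. Nr1i3, the receptor through which Cyp2b10 is induced, rose by 1.21 in wild type (SE 0.29, limma adjusted p = 0.00842) from a mean of 4.54 to 5.75, and its difference in Fgf10+/- was 0.13 (adjusted p = 0.801). Nr1h3, the oxysterol receptor, rose by 0.70 and 0.53. Ppara, the receptor of Cyp4a genes, was called higher by 0.55 and 0.47, but neither call held with the mean of all kept features (0.09, limma adjusted p = 0.672, and 0.26, 0.118). Its Fgf10+/- call was lost without normoxia replicate 1 (0.39, limma adjusted p = 0.0812) or 4 (0.42, 0.0805), or hyperoxia replicate 1 (0.45, 0.065), 3 (0.48, 0.0516) or 4 (0.41, 0.075), and with only the groups compared (0.064). Vdr, the vitamin D receptor, rose by 0.92 in Fgf10+/- (limma adjusted p = 0.0142, and 0.056 with only the groups compared), beside 0.04 (adjusted p = 0.949) in wild type. Cebpb was called higher in wild type by 0.36, and the call was lost without normoxia replicate 2 (0.34, limma adjusted p = 0.0551) or 4 (0.32, 0.0602) or hyperoxia replicate 1 (0.32, 0.0637). Nr1i2, Hnf4a and Nr1h4 were near background.

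Among epoxide hydrolases, which act on P450 products, Ephx1 and Ephx2 moved in opposite directions. Ephx1, the microsomal hydrolase of foreign epoxides, rose by 1.42 (SE 0.12, 2.68-fold, limma adjusted p = 5.52e-06) in wild type and 1.89 (3.72-fold, adjusted p = 4.16e-07) in Fgf10+/-. Ephx2, the soluble hydrolase of fatty acid epoxides, fell by 0.67 (limma adjusted p = 0.0188) and 1.05 (adjusted p = 0.00087). Its wild-type call was lost without normoxia replicate 1 (-0.59, limma adjusted p = 0.0565) or hyperoxia replicate 3 (-0.63, 0.0529). The 17 genes of the eicosanoid list gave 2 higher and 2 lower in wild type and 3 higher and 1 lower in Fgf10+/- (medians 0.10 and 0.29), which is 23.5% called in each, beside 19.1% and 23.7% of all genes. Ptgs2, the inducible cyclooxygenase, rose by 1.30 and the lipoxygenase Alox12 by 0.81 in Fgf10+/- (limma adjusted p = 0.00247 and 0.0105). The Alox12 call was lost with the mean of all kept features (0.33, limma adjusted p = 0.366) and with only the groups compared in the fit (adjusted p = 0.0668). In wild type Ephx3 (0.86) and Ptgs1 (-0.48) were also called. The Ephx3 call was lost without normoxia replicate 3 (0.73, limma adjusted p = 0.077) or 4 (0.86, 0.0524) or hyperoxia replicate 1 (0.81, 0.0661), 3 (0.81, 0.0659) or 4 (0.82, 0.0585). The Ptgs1 call was lost without normoxia replicate 2 (-0.44, limma adjusted p = 0.0576) or 4 (-0.44, 0.0542) or hyperoxia replicate 3 (-0.42, 0.0627) or 4 (-0.43, 0.0565).

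Of 4 tested flavin monooxygenases, which oxidise nitrogen and sulphur compounds beside the P450s, Fmo2, the lung form, rose by 0.86 (SE 0.16, limma adjusted p = 0.002) in wild type and 1.43 (SE 0.16, adjusted p = 3.6e-05) in Fgf10+/-. Fmo5 rose by 0.57 in Fgf10+/- (limma adjusted p = 0.00179), a call lost with the mean of all kept features (0.14, 0.636). The list thus had 1 of 4 and 2 of 4 called higher and 0 lower (25% and 50%, beside 19.1% and 23.7% of all genes). The 14 tested P450 genes of other families gave 0 higher and 1 lower in wild type and 0 higher and 3 lower in Fgf10+/- (medians -0.07 and -0.33), which is 7.14% and 21.4% called beside 19.1% and 23.7% of all genes. Cyp20a1, an orphan P450, fell by 1.36 (SE 0.18, limma adjusted p = 0.000135) in wild type and by 1.16 (adjusted p = 0.000274) in Fgf10+/-. Cyp39a1, an oxysterol hydroxylase, was called lower in Fgf10+/- (-1.46, limma adjusted p = 0.0452). That call was lost without any normoxia replicate (-1.36 to -1.55, highest adjusted p = 0.100) or hyperoxia replicate 1 (-1.30, 0.115) or 2 (-0.97, 0.132), and with array weights (0.0727), a sex term (0.0682), only the groups compared (0.114) or trend and robust options (0.0608). The near-background Cyp24a1, which breaks down active vitamin D, was the remaining call, lost without normoxia replicate 1 (-1.16, limma adjusted p = 0.0589) or hyperoxia replicate 1 (-1.26, 0.0513), 2 (-1.24, 0.0526) or 4 (-1.05, 0.0673).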

How the data were processed

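The deposited values are log2 intensities per array feature, as the authors deposited them; per the labels' protocols, amplified total RNA carried Cy3 dye alone. The medians of the arrays span 0.00068, as quantile normalized values would; normalization, background correction and scan batches are not stated in the labels. No further normalization was applied. Gene names came from the platform annotation, brought up to date through RefSeq (GRCm38.p6) accessions for 29050 of 31465 features. Features were kept if above the 25th percentile of their array in at least 4 of 16 arrays, and the kept feature with the highest mean stood for its gene. All 20173 genes were fitted with limma 3.58.1 in R 4.3.3 (1 mean per group, 12 residual and 2.13 prior degrees of freedom), with Benjamini-Hochberg adjustment within each comparison and calls at an adjusted p under 0.05. A fold is 2 to the power of the log2 difference and is compressed near background. Promoter motifs were counted with Python 3.11.15 and pandas 2.3.3.

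Called members are given by array, those near background in the Fgf10+/- arrays alone, together with Cyp1a1, Cyp1b1 and Cyp2e1. Other members above the array median are given by value or range. Per pathway list and hyperoxia comparison, up to 4 genes with the smallest p are named, and in some lists further calls. The members, lists and tests were chosen with earlier results of these data known, so no count over a list is independent support. On simulated data for hyperoxia in wild type with 20173 genes, the fit recovered 26 of 50 genes changed by 1 on the log2 scale. It recovered 12 of 50 changed by 0.5 and 42 of 50 changed by 2, and called 7 unchanged genes. With 50 genes changed per size, against 3846 genes called in the real comparison, these rates need not hold for it. Alternatives changed the filter, the feature rule, the scaling, the limma options, a sex term, the replicate block and the arrays left out. Replicate numbers were not taken as pairs, since the labels do not say that they pair the samples. Same-number deviations correlated at -0.029 to 0.087, and different-number deviations were not computed beside them.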

Additional observations from a re-analysis of the deposited data

Results flagged for a closer look

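In 7 of 148 groups of 4 arrays (37 named P450 genes, 4.73% of groups), 1 array lay far from the other 3 by Dixon's test, against about 1 in 20 that chance gives. In Fgf10+/- hyperoxia, Cyp2c38 was 4.08 in replicate 3 (others 4.91 to 5.05), Cyp2r1 was 5.24 in replicate 2 (others 6.16 to 6.28), Cyp4f18 was 9.77 in replicate 1 (others 8.55 to 8.63) and Cyp4f39 was 4.44 in replicate 4 (others 4.60 to 4.63). In wild-type hyperoxia, replicate 2 gave 6.59 for Cyp2d11 (others 7.05 to 7.13) and 13.03 for Cyp2u1 (others 12.83 to 12.86). In Fgf10+/- normoxia, Cyp4f13 was 6.55 in replicate 1 (others 6.09 to 6.14).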

How the results depend on the processing

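The number of arrays, 4 per group, limits all calls. For single P450 genes, 1733 values with 1 array left out kept their side of the threshold, 37 lost and 6 gained a call. Under the other settings 1759 kept their side, 17 lost and 17 gained a call. No value called in either fit reversed direction, and the direction of uncalled values was not counted. With 1 array left out, members called higher numbered 4 to 6 in wild-type hyperoxia and 6 to 8 in Fgf10+/- hyperoxia, members called lower 0 to 1 and 1 to 4, and members lower by genotype in normoxia 0 to 1. Members lower in wild-type hyperoxia, 1 in the reported fit, were 0 with the mean of all kept features and 2 with the replicate block. Members lower in Fgf10+/- hyperoxia, 2 in the reported fit, were 1 with limma's trend and robust options. Members lower by genotype, 0 in the reported fit, were 1 in normoxia (Cyp2s1) with a filter at the 50th percentile (limma adjusted p = 0.0388), trend and robust options (0.00553) or array weights (0.0468), and 1 in hyperoxia (Cyp2e1) with trend and robust options (0.0391). With the replicate block, all-gene calls were 3766 (3846 without) and 4818 (4790) for hyperoxia in wild type and Fgf10+/-, 163 (145) and 37 (83) for genotype in normoxia and hyperoxia, and 0 (0) for the interaction. The block ended the Fgf10+/- hyperoxia calls of Cyp2a4, Cyp2a12 and Cyp3a11, added Cyp4f13 there (0.0269), added Cyp4v3 and Cyp4f17 (0.0249) in wild type, and changed no other member's call.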
